A study of Homo sapiens with 6 samples.

Results

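The enzymes and regulators of cholesterol synthesis were examined in PC3 cells, an established line from a bone metastasis of human prostate cancer. The set held 28 genes: the mevalonate and sterol enzymes in pathway order, and the regulators of the sterol-sensing transcription factors. It also held genes of sterol transport, lipoprotein uptake and lipid synthesis. The genes were listed by pathway, but with earlier results of these data known. Counts over these genes therefore describe the data and are not a test of an independent set. All probe sets that name only 1 of these genes were taken, which gave 60 of the 54675 probe sets on the array and 26 of the 28 genes. Of those 26 genes, 25 had a probe set with a mean of at least log2 4 and entered the comparisons, among 11131 genes tested in all. FDFT1, squalene synthase, was not analysed here. The probe sets of CYP51A1, a demethylase of lanosterol, also name a neighbouring gene and were left out. MVD, the mevalonate diphosphate decarboxylase, lay at the floor of the array on every array, between log2 1.90 and 1.92.

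Cells received an siRNA pool against NRP2 (NRP-2 siRNA), an siRNA pool against VEGFC (VEGF-C siRNA) or a scrambled siRNA, and total RNA was taken after 72 h. Each group had 2 arrays. All cells were of the same line, grown with 10% serum, which itself supplies lipoprotein cholesterol. Each target was hit with 1 pool, and the pools came from different suppliers, so the effect of depletion and of the siRNA sequences cannot be told apart. The 2 arrays of a group are listed as separate samples with no statement that they came from separate cultures, so every p-value reflects the spread among these arrays alone, and that spread may be technical. The number of arrays limits the precision.

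The targeted genes, which encode a lymphatic growth factor (VEGFC) and one of its receptors (NRP2), check the labels. NRP2 stood at log2 3.41 and 2.81 under NRP-2 siRNA, 5.51 and 6.01 under VEGF-C siRNA, and 4.77 and 4.92 under scrambled siRNA. VEGFC stood at 11.99 and 11.67 under NRP-2 siRNA, 8.46 and 7.27 under VEGF-C siRNA, and 11.81 and 11.80 under scrambled siRNA. Each target was lowest in its own group. Keratins, vimentin and CD44 were bright (mean of the 5 genes between log2 13.45 and 13.68 on the 6 arrays). The leukocyte genes PTPRC, CD3E and CD14 were near the floor (log2 1.81 to 3.30). The fibroblast genes DCN, LUM and PDGFRB were too (log2 2.09 to 3.25), but COL1A1 (9.56 to 10.77) and COL3A1 (7.04 to 8.75) were not. Of the luminal prostate genes, KLK2 and FOLH1 lay between 2.11 and 2.48, KLK3 between 6.26 and 6.87 and TMPRSS2 between 7.02 and 9.25. COL1A1 (-0.84) and TMPRSS2 (-1.57) were lower with NRP-2 siRNA than with scrambled siRNA at an unadjusted p under 0.05, and their part in the results below was not tested. Array medians of all probe sets spread over 0.07.

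Cholesterol is built from acetyl-CoA. The mevalonate enzymes make isoprenoid units, which are joined to farnesyl diphosphate and squalene, and squalene is closed to lanosterol and trimmed to cholesterol by enzymes of the endoplasmic reticulum. The transcription factor SREBP-2, the product of SREBF2, turns on nearly all of these enzyme genes together. SCAP carries it to the Golgi for cleavage when membrane sterol is low, and INSIG proteins hold it back when sterol is plentiful. Prostate cancer cells are known for active lipid and cholesterol synthesis.

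The promoters show what most of these genes share in sequence. RefSeq windows of the 250 bases before a gene's start (build GRCh38.p14) were found for 25 of the 28 genes, 35 windows in all. These are not the same 25 genes as in the comparisons. MVD and CYP51A1 had a window but were not tested, and ACAT2 and SQLE were tested but had no window. They were searched on both strands for the sterol element letters TCACNCCAC, for CCAAT, the letters bound by NF-Y, a partner of SREBP, and for GGGCGG, the letters bound by Sp1. None of these patterns contains another. The sterol element letters were in a window of 1 of the 25 genes, SREBF2. They were in a window of 1.15% of the tested genes with a window and in 0.883% of all 35116 windows. CCAAT was in a window of 19 of the 25 genes, against 42.2% of the tested genes with a window and 32.0% of all windows. GGGCGG was in a window of 24 of the 25 genes, against 75.5% of the tested genes with a window and 42.6% of all windows. A match to a short string describes these letters and is not evidence of binding.

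The windows below are shown because SREBF2 holds the sterol element letters, because TMEM97, STARD4 and MSMO1 are members with large positive differences in the comparisons that follow, and because TM7SF2 is a member of opposite sign. The last 4 were chosen after their values were seen. They lie at chr22:41832855-41833104 (plus strand, SREBF2), chr17:28318950-28319199 (plus, TMEM97), chr5:111512536-111512785 (minus, STARD4), chr4:165327419-165327668 (plus, MSMO1) and chr11:65111622-65111871 (plus, TM7SF2). Each reads 5′ to 3′ and ends at the base before the annotated start. Capitals mark the sterol element letters and CCAAT or its complement ATTGG.
SREBF2: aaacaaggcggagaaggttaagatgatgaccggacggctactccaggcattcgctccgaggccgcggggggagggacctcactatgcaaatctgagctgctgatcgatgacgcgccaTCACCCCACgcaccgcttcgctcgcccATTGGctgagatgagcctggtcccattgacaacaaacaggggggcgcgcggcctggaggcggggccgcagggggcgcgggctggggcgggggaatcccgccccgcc
TMEM97: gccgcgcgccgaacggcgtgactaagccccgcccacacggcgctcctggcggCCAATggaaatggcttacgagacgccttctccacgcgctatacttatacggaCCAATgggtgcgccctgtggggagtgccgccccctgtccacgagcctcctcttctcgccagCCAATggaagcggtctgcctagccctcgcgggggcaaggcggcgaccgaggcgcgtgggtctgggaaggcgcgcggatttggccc
STARD4: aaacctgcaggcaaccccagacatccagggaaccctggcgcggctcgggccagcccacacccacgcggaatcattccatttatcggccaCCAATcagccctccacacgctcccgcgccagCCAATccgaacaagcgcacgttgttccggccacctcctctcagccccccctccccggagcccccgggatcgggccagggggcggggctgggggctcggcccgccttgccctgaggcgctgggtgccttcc
MSMO1: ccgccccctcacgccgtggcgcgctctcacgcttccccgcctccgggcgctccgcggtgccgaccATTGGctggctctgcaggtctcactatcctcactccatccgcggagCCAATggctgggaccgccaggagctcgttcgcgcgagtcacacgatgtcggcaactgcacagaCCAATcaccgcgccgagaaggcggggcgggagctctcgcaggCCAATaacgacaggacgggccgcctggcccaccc
TM7SF2: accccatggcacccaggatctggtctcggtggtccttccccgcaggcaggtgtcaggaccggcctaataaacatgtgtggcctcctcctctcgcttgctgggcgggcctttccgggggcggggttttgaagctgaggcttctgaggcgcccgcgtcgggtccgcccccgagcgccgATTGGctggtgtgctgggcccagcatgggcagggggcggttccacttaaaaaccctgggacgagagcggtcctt
The sterol element letters of SREBF2 began at -133 from the start, with an ATTGG at -106. TMEM97 held CCAAT at -198, -146 and -85. STARD4 held it at -161 and -130. MSMO1 held 4 copies between -185 and -34, and TM7SF2 held 1, as ATTGG, at -74.

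With NRP-2 siRNA most sterol enzymes stood higher than with scrambled siRNA, while SREBF1, SREBF2 and SCAP differed by -0.14 to -0.09, and TM7SF2 was lower. In bulk RNA, fewer cells of a type and less RNA per cell cannot be told apart. Of the 25 genes, 18 had a positive log2 difference, as had 51.8% of all genes, and the median difference was +0.38, beside +0.01 over all 11131 genes. No gene was called at an adjusted p under 0.05 over all genes (limma, Benjamini-Hochberg), among the members or elsewhere (0% of genes; lowest member adjusted p = 0.213). At an unadjusted p under 0.05, which 13.3% of all genes reached, 12 members were higher, where 6.43% of all genes were, and 1 was lower, where 6.85% were. The NRP-2 arrays lay above both scrambled arrays for 16 members, which held for 25.3% of all genes, and below both for 2, which held for 24.4%. The sizes were modest, from 1.31-fold for FDPS and GGPS1 to 3.31-fold for TMEM97 among those 12. These counts rest on the scrambled arrays and on NRP-2 array 1. Members higher at an unadjusted p under 0.05 numbered 1 without scrambled array 1 (3.66% of all genes), 6 without scrambled array 2 (3.86%), 3 without NRP-2 array 1 (3.70%) and 11 without NRP-2 array 2 (12.7%). Over the same 4 settings the median difference was +0.24, +0.42, +0.33 and +0.42.

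**Figure D1:**
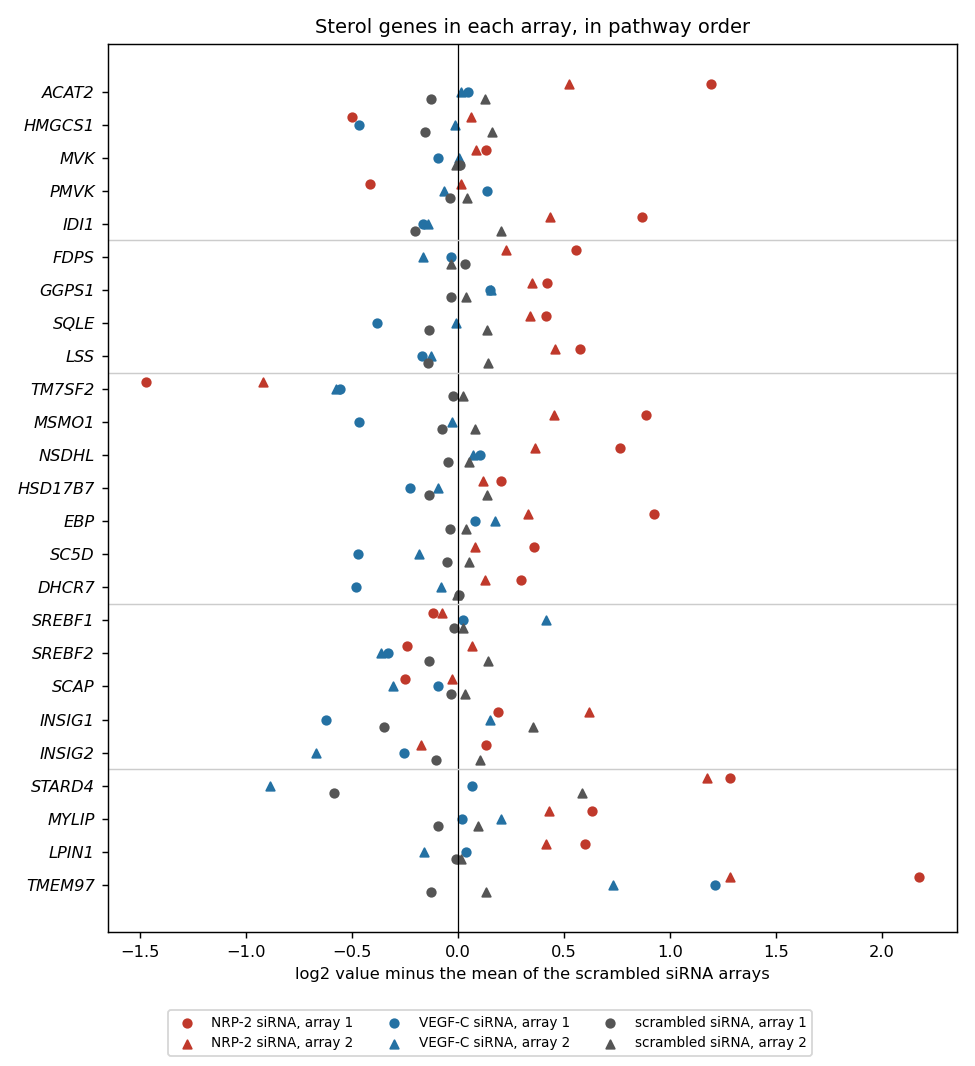
Each gene's log2 value on each of the 6 arrays minus the mean of the 2 scrambled siRNA arrays (x axis), genes in pathway order from top to bottom, grey lines between role groups. Red points (NRP-2 siRNA) lie to the right of grey points (scrambled siRNA) for 16 of 25 genes. They lie to the left for 2, TM7SF2 and SREBF1. With NRP-2 siRNA the means of the regulators SREBF1, SREBF2 and SCAP differ from scrambled siRNA by -0.14 to -0.09.

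The arrays also differed in genes of dividing cells. The mean of 38 measured G2 and mitosis genes (of 39 listed) was log2 10.86 and 9.82 under NRP-2 siRNA, 11.01 and 10.28 under VEGF-C siRNA, and 10.17 and 8.50 under scrambled siRNA. All 38 were higher with NRP-2 siRNA than with scrambled siRNA, by a median of +0.99, with 0 at an unadjusted p under 0.05. With that mean as a covariate the median difference of the sterol members was +0.40 and 7 members were higher at an unadjusted p under 0.05, where 5.06% of all genes were. Of the 12, 6 were among them (ACAT2, IDI1, LSS, STARD4, MYLIP and TMEM97), and INSIG1 was added. With VEGF-C siRNA against scrambled siRNA all 38 mitotic genes were higher too, by a median of +1.31, where the sterol members had -0.15. For NRP-2 siRNA against VEGF-C siRNA 2 of the 38 were above 0 (median -0.30), where the sterol members had a median of +0.49. The part of cell division in the sterol differences was not tested, since the covariate also differed between the groups.

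The early mevalonate steps were mixed. ACAT2, the thiolase that joins acetyl-CoA, had log2 levels of 10.55 and 9.88 under NRP-2 siRNA, 9.40 and 9.37 under VEGF-C siRNA, and 9.23 and 9.48 under scrambled siRNA. Both NRP-2 arrays lay above the other 4, and array 1 was farther out. Its difference from scrambled siRNA was +0.86 (SE 0.24, limma's unadjusted p = 0.0147, adjusted p = 0.282). HMGCS1, the next enzyme and a classic SREBP-2 target, stood at 9.09 and 9.65 under NRP-2 siRNA, 9.13 and 9.58 under VEGF-C siRNA, and 9.44 and 9.75 under scrambled siRNA. Here the groups overlapped, and the difference was -0.22 (SE 0.26). The weaker HMGCS1 probe set gave -0.44. MVK and PMVK, the kinases that phosphorylate mevalonate, differed by +0.11 and -0.20 (SE 0.12 and 0.18). IDI1, the isomerase that balances the isoprenoid units, had 10.45 and 10.02 under NRP-2 siRNA, 9.42 and 9.44 under VEGF-C siRNA, and 9.38 and 9.78 under scrambled siRNA. The NRP-2 arrays were again the highest, by +0.65 over scrambled siRNA (SE 0.21, unadjusted p = 0.0242). A second bright IDI1 probe set gave +0.68 and a dimmer one +0.08. All 3 are of the platform's class whose probes may also match other transcripts.

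The 4 measured enzymes that make farnesyl diphosphate, divert it or lead on to lanosterol were all higher with NRP-2 siRNA in their brightest probe sets. FDPS, farnesyl diphosphate synthase, had log2 levels of 11.99 and 11.66 under NRP-2 siRNA, 11.41 and 11.27 under VEGF-C siRNA, and 11.47 and 11.40 under scrambled siRNA. GGPS1, which diverts farnesyl diphosphate towards protein prenylation, had 10.57 and 10.50 under NRP-2 siRNA, 10.30 and 10.31 under VEGF-C siRNA, and 10.11 and 10.19 under scrambled siRNA. NRP-2 siRNA was highest for both genes, with its arrays farther apart for FDPS than for GGPS1. FDPS differed from scrambled siRNA by +0.39 (SE 0.16, unadjusted p = 0.0494) and GGPS1 by +0.38 (SE 0.11, unadjusted p = 0.0176), but the second GGPS1 probe set gave +0.01. FDPS was at +0.23 without NRP-2 array 1 (unadjusted p = 0.182), and had an unadjusted p under 0.05 in 7 of 15 alternative settings. SQLE, squalene epoxidase and a rate-limiting step, had 12.02 and 11.94 under NRP-2 siRNA, 11.22 and 11.60 under VEGF-C siRNA, and 11.47 and 11.74 under scrambled siRNA. The NRP-2 arrays lay above the others, by +0.38 over scrambled siRNA (SE 0.18, unadjusted p = 0.0856), and the other 3 SQLE probe sets gave +0.48 to +0.58. LSS, lanosterol synthase, had 9.33 and 9.21 under NRP-2 siRNA, 8.59 and 8.63 under VEGF-C siRNA, and 8.62 and 8.90 under scrambled siRNA. Its NRP-2 arrays stood clear of the other 4, at +0.52 (SE 0.14, unadjusted p = 0.0137).

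After lanosterol the enzymes split. MSMO1 is a monooxygenase in the removal of sterol methyl groups. It had log2 levels of 13.15 and 12.71 under NRP-2 siRNA, 11.79 and 12.23 under VEGF-C siRNA, and 12.18 and 12.34 under scrambled siRNA. NSDHL, the dehydrogenase of the same complex, had 10.26 and 9.86 under NRP-2 siRNA, 9.60 and 9.56 under VEGF-C siRNA, and 9.44 and 9.54 under scrambled siRNA. EBP, the sterol isomerase, had 11.22 and 10.62 under NRP-2 siRNA, 10.37 and 10.46 under VEGF-C siRNA, and 10.25 and 10.33 under scrambled siRNA. In each of these 3 genes both NRP-2 arrays were above the other 4, with array 1 above array 2. Against scrambled siRNA the differences were +0.67 for MSMO1 (SE 0.22), +0.56 for NSDHL (SE 0.17) and +0.63 for EBP (SE 0.21), with unadjusted p = 0.0267, 0.0174 and 0.0292 in limma. The second NSDHL probe set gave +0.34, and the other EBP probe sets past the filter gave +0.48 and +0.55. Without scrambled array 1, scrambled array 2 or NRP-2 array 1, all 3 had an unadjusted p above 0.05 and a positive difference, as had EBP without either VEGF-C array.

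TM7SF2, a sterol reductase of the same stretch, ran against its neighbours. It had log2 levels of 6.97 and 7.52 under NRP-2 siRNA, 7.88 and 7.87 under VEGF-C siRNA, and 8.42 and 8.47 under scrambled siRNA. The groups did not overlap in any of the 3 comparisons: NRP-2 siRNA was lowest, VEGF-C siRNA lay between and scrambled siRNA was highest. It was 2.29-fold lower with NRP-2 siRNA (-1.20, SE 0.20, limma's unadjusted p = 0.00138, adjusted p = 0.213) and 1.48-fold lower with VEGF-C siRNA (-0.57, SE 0.20, unadjusted p = 0.0332). With NRP-2 siRNA it was between -1.47 and -0.92 when each array was left out in turn, with an unadjusted p under 0.05 each time. TM7SF2 had 1 probe set, so no second measurement was at hand.

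SC5D, DHCR7 and HSD17B7 differed less from control than MSMO1, NSDHL and EBP did. SC5D, a desaturase, had log2 levels of 12.69 and 12.42 under NRP-2 siRNA, 11.86 and 12.15 under VEGF-C siRNA, and 12.28 and 12.39 under scrambled siRNA. DHCR7, the reductase that ends one route to cholesterol, had 9.70 and 9.53 under NRP-2 siRNA, 8.92 and 9.32 under VEGF-C siRNA, and 9.40 and 9.39 under scrambled siRNA. Both genes kept the same order of groups, with NRP-2 siRNA highest, scrambled siRNA between and VEGF-C siRNA lowest. NRP-2 siRNA gave +0.22 for SC5D and +0.21 for DHCR7 (SE 0.17 each), VEGF-C siRNA gave -0.33 and -0.28, and none of these 4 differences reached an unadjusted p under 0.05. The second DHCR7 probe set gave +0.07 under NRP-2 siRNA, beside -0.42 under VEGF-C siRNA (unadjusted p = 0.0166 in the fit of all probe sets). HSD17B7, the ketosteroid reductase, stands between NSDHL and EBP in the pathway order used here. It differed by +0.16 under NRP-2 siRNA (SE 0.15), and its NRP-2 and scrambled arrays overlapped. Its probe set may match other transcripts.

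**Figure D2:**
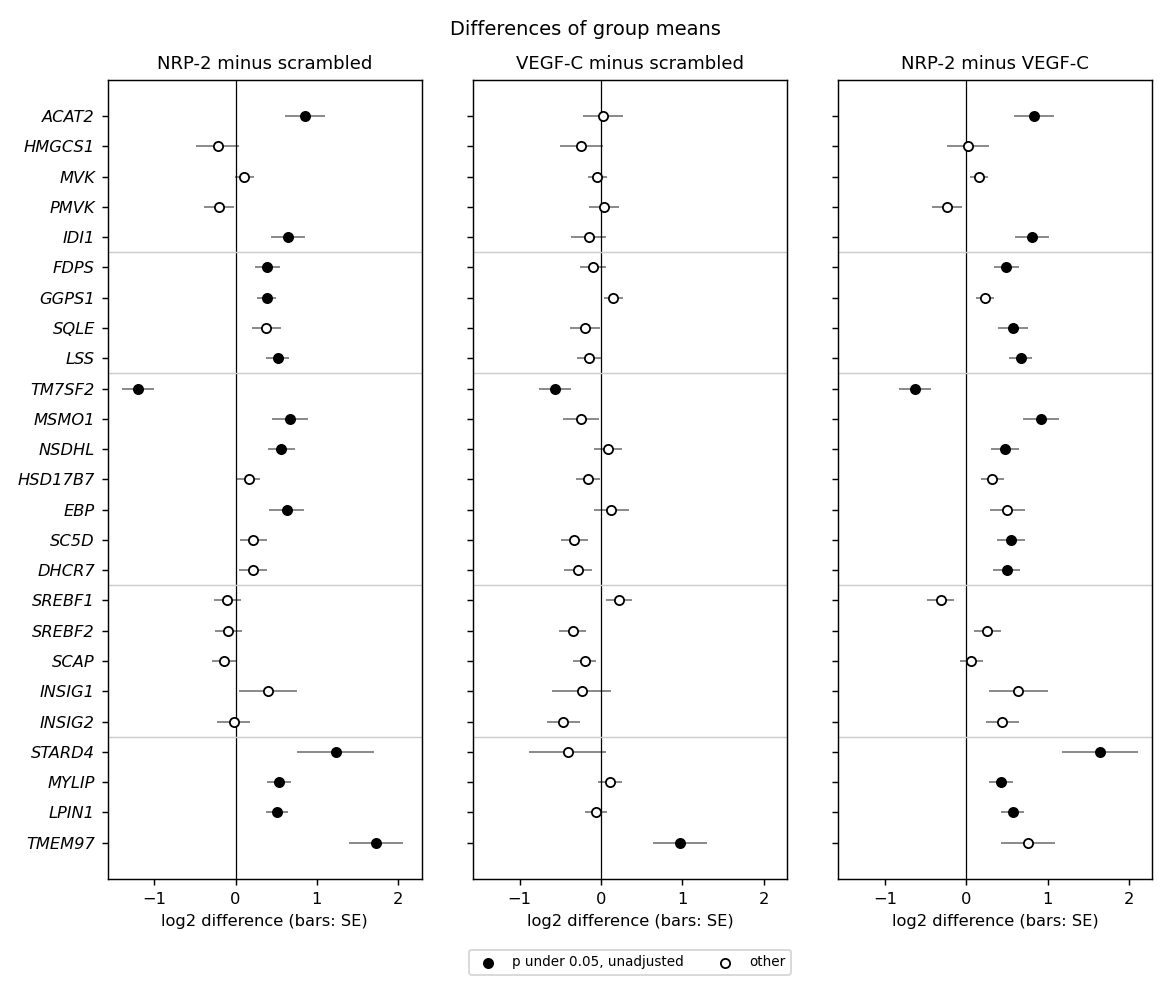
Log2 differences of group means with their standard errors for the 25 genes in pathway order (NRP-2 minus scrambled, VEGF-C minus scrambled, NRP-2 minus VEGF-C). Filled points have an unadjusted p under 0.05 in limma; there are 13, 2 and 13 of them, and none had an adjusted p under 0.05.

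With all 6 arrays and no further term in the model, none of the 5 genes that control the pathway reached an unadjusted p under 0.05 in any comparison. SREBF2 had log2 levels of 6.24 and 6.55 under NRP-2 siRNA, 6.15 and 6.12 under VEGF-C siRNA, and 6.34 and 6.62 under scrambled siRNA. SREBF1, whose product drives fatty acid genes as well, had 7.93 and 7.97 under NRP-2 siRNA, 8.08 and 8.46 under VEGF-C siRNA, and 8.03 and 8.07 under scrambled siRNA. Against scrambled siRNA, SREBF2 and SREBF1 differed by -0.09 and -0.10 under NRP-2 siRNA, beside -0.35 and +0.22 under VEGF-C siRNA, with no unadjusted p under 0.05. INSIG1, at once a brake on SREBP and one of its most responsive targets, had 11.68 and 12.11 under NRP-2 siRNA, 10.86 and 11.64 under VEGF-C siRNA, and 11.14 and 11.84 under scrambled siRNA. In every group array 2 was the higher, and the NRP-2 and scrambled arrays overlapped. The difference was +0.40 with NRP-2 siRNA (SE 0.36, unadjusted p = 0.31). The other INSIG1 probe sets gave +0.53 and +0.57 (unadjusted p = 0.240 and 0.221 in limma's fit of all probe sets). In each of those the NRP-2 arrays lay above both scrambled arrays. With the mitotic mean as a covariate INSIG1 was at +0.90 (unadjusted p = 0.0105). SCAP differed by -0.14 under NRP-2 siRNA, beside -0.20 under VEGF-C siRNA. INSIG2, the paralog of INSIG1, differed by -0.02 under NRP-2 siRNA, beside -0.46 under VEGF-C siRNA.

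Among the genes of sterol transport, lipoprotein uptake and lipid synthesis, TMEM97 and STARD4 had the largest positive differences of the 25 members with NRP-2 siRNA. TMEM97, a protein of the endoplasmic reticulum that binds the lysosomal cholesterol transporter NPC1, had log2 levels of 11.80 and 10.90 under NRP-2 siRNA, 10.84 and 10.35 under VEGF-C siRNA, and 9.49 and 9.75 under scrambled siRNA. Every array with a targeting siRNA lay above both scrambled arrays. The difference was +1.73 with NRP-2 siRNA (SE 0.34, limma's unadjusted p = 0.00281, adjusted p = 0.214) and +0.97 with VEGF-C siRNA (SE 0.34, unadjusted p = 0.0307, adjusted p = 0.304). Its other 3 probe sets gave +1.71, +1.44 and +0.61 under NRP-2 siRNA, beside +1.04, +0.92 and +0.47 under VEGF-C siRNA. With NRP-2 siRNA it stayed between +1.28 and +2.17, with an unadjusted p under 0.05, when each array was left out in turn.

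STARD4, a cytosolic carrier of sterol, had log2 levels of 9.14 and 9.03 under NRP-2 siRNA, 7.92 and 6.97 under VEGF-C siRNA, and 7.27 and 8.44 under scrambled siRNA. The NRP-2 arrays lay close together and were highest, while the arrays of each other group were about a log2 unit apart. Its difference was +1.23 with NRP-2 siRNA (SE 0.47, unadjusted p = 0.0438) and ranged from +0.64 to +1.81 when each array was left out in turn, with an unadjusted p above 0.05 without scrambled array 1 or without either NRP-2 array. LPIN1, a phosphatidate phosphatase and SREBP target, had 10.34 and 10.15 under NRP-2 siRNA, 9.77 and 9.58 under VEGF-C siRNA, and 9.72 and 9.75 under scrambled siRNA. The NRP-2 arrays stood apart by +0.51 (SE 0.14, unadjusted p = 0.0123), and by +0.73 in the second probe set. MYLIP, a ubiquitin ligase that lowers lipoprotein uptake and is induced by the oxysterol receptor LXR rather than by SREBP, had 10.66 and 10.46 under NRP-2 siRNA, 10.04 and 10.23 under VEGF-C siRNA, and 9.93 and 10.12 under scrambled siRNA. It was highest with NRP-2 siRNA too, at +0.53 (SE 0.15, unadjusted p = 0.0138), and its other 4 probe sets past the filter gave +0.58 to +0.82.

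**Figure D3:**
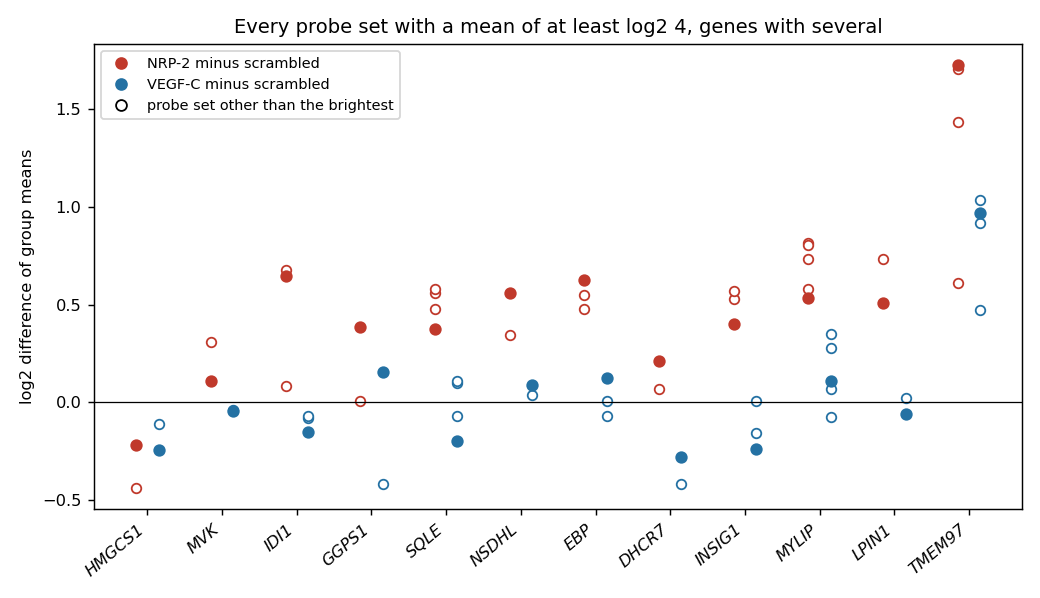
Log2 difference from scrambled siRNA for every probe set with a mean of at least log2 4, for the 12 genes with several (filled, the brightest of the gene; open, the others). With NRP-2 siRNA (red) the probe sets of each gene share a sign in 12 of 12 genes, and with VEGF-C siRNA (blue) in 6 of 12. The same share over all genes with several probe sets was not computed. With NRP-2 siRNA the GGPS1 sets range from +0.01 to +0.38, and both HMGCS1 sets lie below 0.

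With VEGF-C siRNA most sterol genes differed from scrambled siRNA by small amounts. Of the 25 genes, 8 had a positive difference from scrambled siRNA, as had 49.3% of all genes. The median was -0.15, beside -0.004 over all genes. The VEGF-C arrays lay above both scrambled arrays for 5 members (20%, against 26.8% of all genes). They lay below both for 6 (24%, against 26.6% of all genes), so neither share exceeded that of all genes. At an unadjusted p under 0.05, which 14.8% of all genes reached, 1 member was higher (TMEM97; background 6.95%) and 1 was lower (TM7SF2; background 7.80%), and none had an adjusted p under 0.05 (limma, lowest member adjusted p = 0.304; 0% of genes). Without scrambled array 1 or without scrambled array 2 the median was -0.28 and -0.02, and neither TMEM97 nor TM7SF2 kept an unadjusted p under 0.05. TM7SF2 was not past it without either VEGF-C array, nor TMEM97 without VEGF-C array 1. The comparisons with scrambled siRNA share its 2 arrays, so their values stand side by side and are not independent.

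Set against each other, NRP-2 siRNA and VEGF-C siRNA differed across the pathway. In this comparison, which does not use the scrambled arrays for its means, 22 of 25 members were higher with NRP-2 siRNA, as were 52.7% of all genes, with a median of +0.49 beside +0.02 over all genes. The groups did not overlap in 20 members higher with NRP-2 siRNA, where this held for 24.1% of all genes, and in 2 lower with it, where this held for 22.4%. At an unadjusted p under 0.05, 12 members were higher with NRP-2 siRNA, against 9.54% of all genes, and 1 was lower, against 8.66%. None was called at an adjusted p under 0.05 (limma, lowest member adjusted p = 0.131; 0% of genes, with 2026 genes at an unadjusted p under 0.05). The 12 were ACAT2, IDI1, FDPS, SQLE, LSS, MSMO1, NSDHL, SC5D, DHCR7, STARD4, MYLIP and LPIN1, and the lower member was TM7SF2. STARD4 had the widest gap, +1.64 or 3.12-fold (SE 0.47, unadjusted p = 0.0152), followed by MSMO1 at +0.92 (SE 0.22, unadjusted p = 0.00758). LSS, at +0.67 (SE 0.14), had the smallest unadjusted p, 0.00464. IDI1, LSS, MSMO1 and LPIN1 kept an unadjusted p under 0.05 without any 1 of the 6 arrays. TMEM97, higher than scrambled siRNA with both pools, was at +0.76 between them (SE 0.34, unadjusted p = 0.0697). HMGCS1 was at +0.02, SREBF1 at -0.32 and PMVK at -0.24. Without NRP-2 array 1 the count of higher members was 5 (7.95% of all genes) and the median +0.32, and without VEGF-C array 1 the count was 7 (8.96%).

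**Figure D4:**
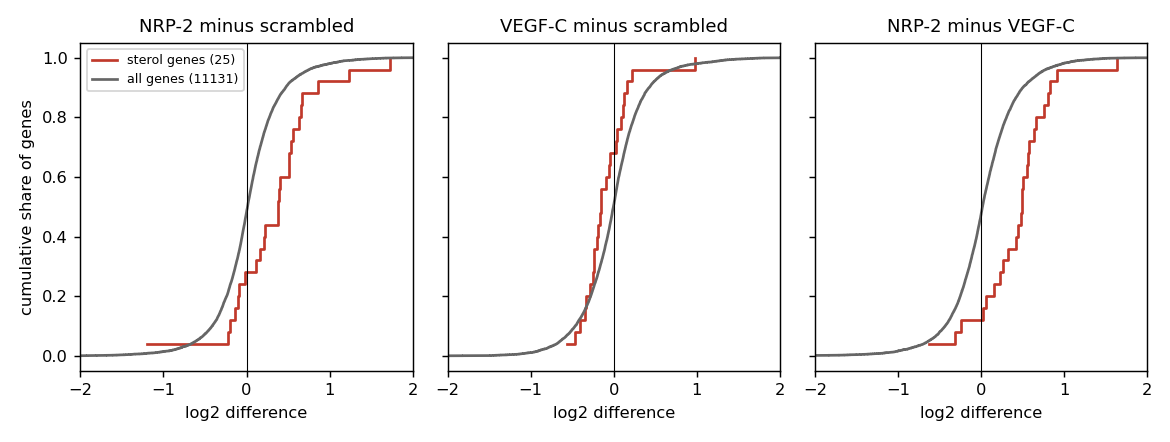
Cumulative share of genes against the log2 difference in each comparison, for the 25 sterol genes (red) and all 11131 genes tested (grey), with the x axis cut at -2 and 2. The red line lies to the right of the grey one in the comparisons of NRP-2 siRNA, with medians of +0.38 and +0.49, and slightly to its left for VEGF-C minus scrambled, with a median of -0.15.

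Genes that handle cholesterol after its synthesis were read from lists of the pathway's neighbours, by their counts at an unadjusted p under 0.05 with NRP-2 siRNA against scrambled siRNA. Over all genes 6.43% were higher and 6.85% lower by that measure, and a single gene past it in a short list says nothing about the list. Of 14 measured sterol transport genes, 3 were higher and 3 lower. Among them NPC1, the lysosomal cholesterol transporter, had log2 levels of 10.43 and 10.62 under NRP-2 siRNA, 11.91 and 12.28 under VEGF-C siRNA, and 11.79 and 11.70 under scrambled siRNA. Both NRP-2 arrays were lower by more than a log2 unit, at -1.22 (unadjusted p = 0.000557). GRAMD1B, which moves cholesterol from the plasma membrane to the endoplasmic reticulum, was higher, with 9.21 and 8.69 with NRP-2 siRNA and 7.90 and 7.95 with scrambled siRNA (+1.03). GRAMD1C, of the same family, was lower, at -0.72 under NRP-2 siRNA, beside -1.02 under VEGF-C siRNA. GRAMD1A was at -0.04 under NRP-2 siRNA. OSBPL6, of the oxysterol-binding protein family, differed by +0.86 under NRP-2 siRNA, beside +0.75 under VEGF-C siRNA (unadjusted p = 0.0117). Of 5 measured genes of cholesterol esters and oxysterols, 2 were higher and 0 lower. SOAT1, which stores cholesterol as esters, had 9.19 and 9.09 under NRP-2 siRNA, 8.48 and 7.20 under VEGF-C siRNA, and 7.72 and 8.09 under scrambled siRNA (+1.23 over scrambled siRNA). NCEH1, a hydrolase of cholesterol esters, was at +0.69, so enzymes of storage and of release both stood higher. Of 6 measured efflux and LXR genes, 0 were higher and 1 lower, RXRA, the partner of LXR, at -0.90. Of 6 lipoprotein uptake genes, 1 was higher, LRP8, at +0.80. Of 11 measured genes of SREBP processing and INSIG turnover, SAR1B, a coat protein of vesicles that leave the endoplasmic reticulum, was higher (+0.41) and ERLIN2, which acts in sterol-driven degradation, was lower (-0.72). ERLIN2 was lower with VEGF-C siRNA too (-0.59, unadjusted p = 0.00496), and SAR1B was at +0.34 there. No gene of these lists had an adjusted p under 0.05.

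**Figure D5:**
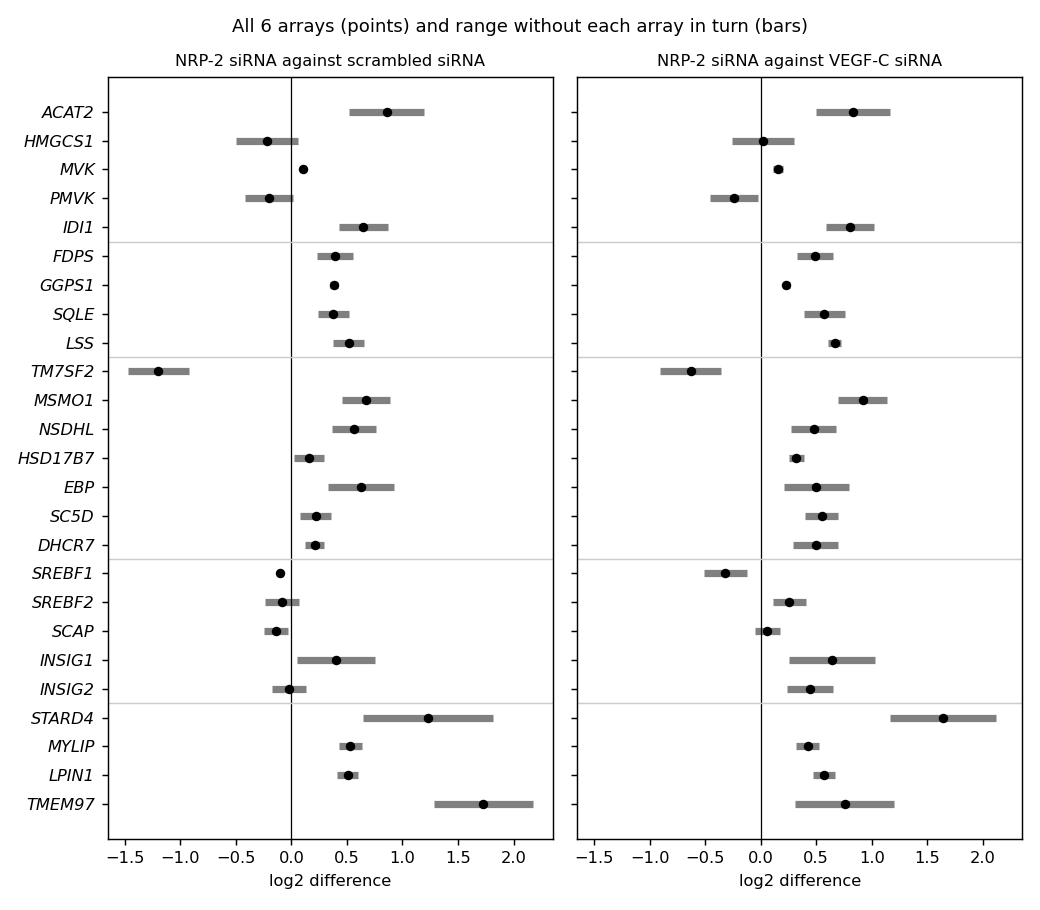
Log2 differences from all 6 arrays (points) and their range when each array was left out in turn (grey bars), genes in pathway order, for NRP-2 siRNA against scrambled siRNA (left) and against VEGF-C siRNA (right). All 13 genes with an unadjusted p under 0.05 in each panel kept their sign throughout, TM7SF2 below 0 and the other 12 above it.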

How the data were processed

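Per the labels, PC3 RNA was hybridised to HG-U133 Plus 2.0 arrays, 2 for each of 3 groups, with groups taken from the genotype label. The values are the log2 signals that the authors deposited. The submitters' processing notes name Partek and, for the summary step, GCRMA; versions: not given in the sources used here. This method corrects background by probe sequence, normalizes between arrays and summarises probes. Values near the floor are compressed, so folds of dim genes are understated. Scanner files and detection calls were not used here.

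Of 54675 probe sets, 62 were controls, 41091 name 1 gene in the 2016 platform annotation, 1801 several and 11721 none. Of those naming 1 gene, 19946 averaged log2 4 or more and were kept, and the brightest stood for each of 11131 genes. limma 3.58.1 in R 4.3.3 (lmFit, eBayes, two-sided) was fitted to all 6 arrays at once (3 residual degrees of freedom, prior 2.46), with Benjamini-Hochberg adjustment over all genes. A second fit took every 1-gene probe set. Differences are log2, means of the 2 arrays subtracted. The procedure was tested on simulated data.

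The members and lists were chosen with earlier results of these data known. Values of every array are given for members with an unadjusted p under 0.05 in any comparison and for INSIG1, SREBF1, SREBF2, HMGCS1, SQLE and LSS. From each other list up to 3 genes with the smallest p are named. GRAMD1A and GRAMD1C are given beside GRAMD1B, as members of its family. Alternatives were another probe set rule, filters, normalizations, spread model, the 4 arrays compared alone, the replicate number as a block, a cell cycle covariate and leaving out each array.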

Additional observations from a re-analysis of the deposited data

How the results depend on the processing

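No member had an adjusted p under 0.05 in any of the 3 comparisons under any of the 15 alternatives (limma). The 13, 2 and 13 members past an unadjusted p under 0.05 (NRP-2 against scrambled, VEGF-C against scrambled, NRP-2 against VEGF-C) kept their sign under all 15, and 2, 0 and 4 of them stayed past it without any 1 array. Of the other members, 4 of 12, 9 of 23 and 2 of 12 changed sign under some alternative. With each array left out in turn, members higher at an unadjusted p under 0.05 ranged from 1 to 11, 0 to 1 and 5 to 12, members lower from 1 to 1, 0 to 1 and 0 to 2, and medians from +0.24 to +0.42, -0.28 to -0.024 and +0.32 to +0.60. With the arrays' mitotic mean as a covariate, 7 members were higher with NRP-2 siRNA than with scrambled siRNA (5.06% of all genes), 6 of them among the 12. With VEGF-C siRNA, 0 were higher (3.70% of all genes) and 0 lower. There, 7.55% of all genes had an unadjusted p under 0.05 in either direction. The cause was not tested. Replicate numbers are shared by the groups; deviations of same-numbered arrays from their group means correlated at 0.58, 0.11 and 0.12 across genes, and nothing in the labels says that a number marks a shared culture. With the replicate block, higher members numbered 12, 1 and 14, beside 9.46%, 8.89% and 10.9% of all genes. Lower members numbered 1, 1 and 1. In either direction 17.2%, 17.9% and 20.4% of all genes had an unadjusted p under 0.05 with the block. For NRP-2 siRNA against scrambled siRNA, INSIG1 then had an unadjusted p = 0.0437 in limma and STARD4 0.0511. For NRP-2 siRNA against VEGF-C siRNA, INSIG1 (unadjusted p = 0.00764 in limma) and TMEM97 (unadjusted p = 0.0449) were added. Other probe set rules, filters and normalizations left these counts within 1.5 times. The size of changes in dim genes is limited by signal over background: MVD could not be assessed.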

Other observations

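Neighbouring branches of metabolism share substrates or regulators with the sterol pathway. Of 13 measured genes that use isoprenoids for dolichol, coenzyme Q or protein prenylation, 0 were higher and 1 was lower at an unadjusted p under 0.05 with NRP-2 siRNA against scrambled siRNA (6.43% and 6.85% of all genes), and 1 was higher and 2 were lower against VEGF-C siRNA (9.54% and 8.66% of all genes). DHDDS, a subunit of the enzyme that makes the dolichol precursor, had log2 levels of 6.78 and 6.78 under NRP-2 siRNA, 7.39 and 7.26 under VEGF-C siRNA, and 7.28 and 7.28 under scrambled siRNA (-0.50 against scrambled siRNA, unadjusted p = 0.00691 in limma). PDSS2, which makes the side chain of coenzyme Q, stood at 9.59 and 9.69 under NRP-2 siRNA, 9.02 and 9.23 under VEGF-C siRNA, and 9.57 and 9.70 under scrambled siRNA, so that VEGF-C siRNA was the low group.

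The list of fatty acid genes known as SREBP-1 targets had 9 measured genes. With NRP-2 siRNA against scrambled siRNA, 0 were higher at an unadjusted p under 0.05, where 6.43% of all genes were. The 1 lower gene, where 6.85% of all genes were, was FASN, fatty acid synthase (-0.32). The median difference of the 9 was -0.01. Against VEGF-C siRNA 4 of the 9 were higher with NRP-2 siRNA, where 9.54% of all genes were: ACLY (+0.50), which makes cytosolic acetyl-CoA, ACACA (+0.41), FADS2 (+0.37) and GPAM (+0.64). GPAM, which starts glycerolipid synthesis, averaged log2 9.27 ± 0.38 under NRP-2 siRNA, 8.63 ± 0.19 under VEGF-C siRNA, and 9.59 ± 0.17 under scrambled siRNA (SD, n = 2 each), lowest with VEGF-C siRNA (-0.97 against scrambled siRNA, unadjusted p = 0.00609). None of these genes had an adjusted p under 0.05.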
